A study of Rattus norvegicus with 13 samples.

Results

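The genes of fatty acid oxidation were examined in the peripheral cornea and limboscleral tissue of rats given spironolactone or vehicle. The list has 36 members: Hadh, the gene of the mitochondrial short-chain 3-hydroxyacyl-CoA dehydrogenase, and 35 other genes of fatty acid uptake, activation, transport, oxidation and their control. Hadh was taken because its difference between treatments at day 3 had one of the smallest p-values among genes with higher values under spironolactone, where it ranked 5. Of those ranked around it, Col17a1 at rank 4 had a log2 fold change of 0.83 and Egln3 at rank 6 one of 0.58, and no other member was among the first 8. The remaining members were listed as the pathway around it, to ask whether they go with Hadh. Of the 36, 35 had a row among the 28357 gene rows of the day 3 files, and 33 were among the 14762 genes with enough counts to test. Acaa1a, a peroxisomal thiolase gene, had no row. Acox2, a peroxisomal oxidase of branched chains and bile acid side chains, had 2 to 6 counts in each library. Echs1, the gene of the short-chain enoyl-CoA hydratase, was listed at 0 or 1 count in each of the 6 libraries. Mfn2, a mitochondrial fusion gene that most cells use, was also listed at 0 in each, so these entries are not read as a lack of expression.

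All animals were wild-type male Lewis rats aged 2 months with a model of limbal stem cell deficiency, a loss of the cells that renew the corneal epithelium, after which blood vessels invade the cornea. Spironolactone, a blocker of the mineralocorticoid receptor, was injected under the skin at 25 mg/kg/day, and the vehicle of the controls was 90% olive oil with 10% DMSO. The comparison rests on the 6 day 3 libraries, 3 per treatment. Separate animals are not stated for the libraries, and a p-value here weighs a difference against library-to-library spread, which may be technical. The day 7 genes carry identifiers that no table used here pairs with names, and the members were not analysed there.

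Fatty acids are taken up, joined to coenzyme A by acyl-CoA synthetases, and carried into mitochondria as carnitine esters. Inside, each round of beta-oxidation runs through a dehydrogenase, a hydratase, a second dehydrogenase and a thiolase, and electrons pass through the electron transfer flavoprotein to the respiratory chain. Peroxisomes run a related pathway for very long and branched chains. The nuclear receptors PPAR-alpha and PPAR-delta and the coactivator PGC-1alpha are well known for switching these genes on in liver, heart and muscle.

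The 6 libraries held between 18.2 and 25.3 M estimated counts. Defining markers of the labelled tissue were present: 14 of the 15 corneal and limbal epithelial markers and 8 of the 9 keratocyte and fibroblast markers were tested. Several marker lists differed between treatments. Levels are in CPM, the normalised count used throughout, which is a gene's count relative to its library's total after TMM scaling. Summed epithelial markers ran from 24040 to 28690 CPM with spironolactone and from 13700 to 19730 with vehicle. Of the 14, 12 had groups that did not overlap, all on the higher side, beside 16% of all genes. All 22 tested skeletal muscle fibre markers had all 3 spironolactone values below the vehicle range, beside 16.1% of all genes. Their sums were 232.1 to 403 against 687.3 to 1566 CPM. Summed retina and lens markers stood at 401.9 CPM in spironolactone library 3, at 3103 and 3926 in the other spironolactone libraries, and from 4586 to 5090 with vehicle. The low sum did not hold for each marker. The retinal gene Nrl had 1.301 CPM in spironolactone library 3, against 17.07 and 19.01 in libraries 1 and 2. The lens gene Cryab had 66.83 there, against 64.97 and 66.06. The share of mitochondrially encoded transcripts was 4.17% to 4.85% with spironolactone and 5.13% to 5.48% with vehicle. In bulk tissue, fewer cells of a type and less RNA per cell cannot be told apart, and the part of these differences in the results on the pathway was not tested.

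The members did not all go with Hadh. Of the 33 tested members, 20 had positive and 13 negative log2 fold changes, with a median of 0.05, where the median of all genes tested was -0.0073 and 48.4% were positive. In 11 members the 3 spironolactone values lay above all 3 vehicle values, beside 16% of all genes, and in 6 they lay below, beside 16.1%. The 11 were Hadh, Hadha, Hadhb, Acaa2, Acadl, Etfa, Etfb, Acsl1, Acsl5, Ehhadh and Ppard, and the 6 were Cd36, Acsl3, Cpt1b, Crat, Ppara and Ppargc1a. The other 16 had groups that overlapped, with log2 fold changes from -0.21 to 0.17. On the authors' TPM (transcripts relative to the library's total, per length), which are not TMM-scaled, 10 members were separate on the higher side, beside 9.86% of all genes, and 9 on the lower, beside 23.1%. Hadha then overlapped, and Acadsb, Cpt1c and Decr1 were on the lower side.

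No member passed edgeR's test at an adjusted p of 0.05, and neither did any of the 14762 genes (0%). At an unadjusted p under 0.05 there were 11 higher and 4 lower members, beside 12.2% and 10.4% of all genes. DESeq2 called 7 higher members (Hadh, Hadhb, Acadl, Etfa, Acsl1, Acsl5 and Ppard) and 1 lower (Ppargc1a), beside 5.74% and 3.41% of the 14542 genes it read for calls. Limma-voom called 0 members, and 0 of all genes. Without vehicle replicate 3 edgeR called Hadh, Acsl1, Etfa and Acaa2, beside 3.72% of all genes called higher and 1.55% lower. Because Hadh was picked on this same contrast, these counts describe the list and test nothing about it.

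**Figure D1:**
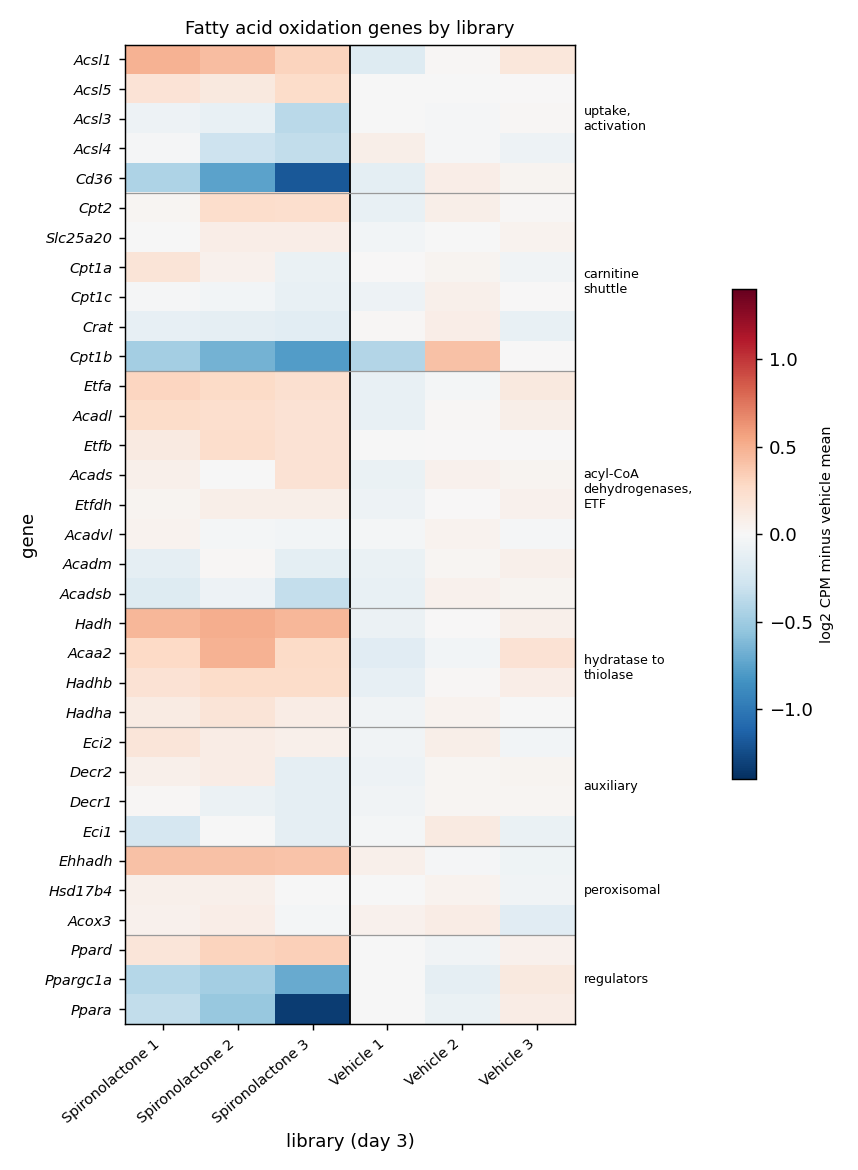
Heat map of the 33 tested members (rows, grouped by step of the pathway) in the 6 day 3 libraries (columns). Colour is log2 CPM minus the mean of the vehicle libraries. The 4 tested genes from hydratase to thiolase lie above the vehicle mean in each spironolactone library, Hadha only slightly, while Cd36, Cpt1b, Ppargc1a and Ppara are blue. Acadl, Etfa, Etfb, Acsl1, Acsl5, Ehhadh and Ppard, of other steps, also lie above the vehicle mean in each spironolactone library.

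The last steps of the oxidation spiral hold Hadh. Of the 4 tested members there, Hadh was picked on this contrast, and the other three, Hadha, Hadhb and Acaa2, also had CPM groups apart on the higher side, as 16% of all genes had. Hadh oxidises the hydroxyl group of short and medium acyl chains in the mitochondrial matrix. It had 107.9, 111.1 and 107.6 CPM in spironolactone libraries 1, 2 and 3 and 73.88, 78.56 and 82.19 CPM in vehicle libraries 1, 2 and 3. The spironolactone values differed from one another by less than the vehicle values did, and the groups were well apart. The means were 108.8 ± 1.94 and 78.2 ± 4.17 CPM (SD, n = 3 each), a difference of 39.2% and a log2 fold change of 0.48 (SE 0.055). Left out one library at a time, this log2 fold change ran from 0.44 to 0.53. Summed epithelial markers in libraries 1, 2 and 3 were 24040, 28690 and 27990 CPM with spironolactone and 14080, 13700 and 19730 with vehicle. In each group Hadh was highest in the same library as these markers and lowest in another. The part of the epithelium in the differences of Hadh and the other higher members was not tested.

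Hadha and Hadhb encode the alpha and beta subunits of the trifunctional protein of the inner mitochondrial membrane, which carries out the same steps on long chains. For Hadha, CPM were 242, 253.5 and 239.1 with spironolactone and 215.3, 231.5 and 222.8 with vehicle. Hadhb had 225.9, 235.5 and 234.8 CPM with spironolactone and 182.1, 199.1 and 210.4 with vehicle. In both genes the lowest spironolactone value lay above the highest vehicle value, by a small margin in Hadha. The fitted log2 difference was 0.13 (SE 0.052, adjusted p = 0.192) for Hadha and 0.23 (SE 0.064, adjusted p = 0.104) for Hadhb. On the authors' TPM values the groups of Hadha overlapped, with 127.4, 135.2 and 125.2 TPM against 119.3, 127.7 and 120.9. Acaa2, a mitochondrial thiolase gene, had a log2 difference of 0.34 (SE 0.11, adjusted p = 0.136), with vehicle library 3, at 52.18 CPM, close below the lowest spironolactone library at 54.47. The summed TPM of the genes of these steps, to which Echs1 gave at most 0.06, was 480.1, 512.4 and 483.2 with spironolactone and 400.4, 431.5 and 441.8 with vehicle. This sum includes Hadh, the gene picked on this contrast. Hadh gave 106.2, 110.8 and 105.2 TPM of it with spironolactone and 76.73, 81.14 and 83.4 with vehicle.

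The windows around the start sites of Hadh, Hadha and Hadhb, from 250 bases before to 50 after, are shown. Hadha and Hadhb turned out to share part of theirs. The windows come from RefSeq on the GRCr8 build, which is not the build of the count files, and 30 of the 36 members had one. Acaa2, Acadl, Cpt1b, Cpt1c, Decr1 and Ppard had none. Capitals mark, on either strand, the SP1 box core GGGCGG. They also mark the CCAAT box, and the half-site of nuclear receptors, AGGTCA. Hadh is on the minus strand at chr2:222504397-222504696, Hadha on the plus strand at chr6:31907551-31907850 and Hadhb on the minus strand at chr6:31907451-31907750.
Hadh: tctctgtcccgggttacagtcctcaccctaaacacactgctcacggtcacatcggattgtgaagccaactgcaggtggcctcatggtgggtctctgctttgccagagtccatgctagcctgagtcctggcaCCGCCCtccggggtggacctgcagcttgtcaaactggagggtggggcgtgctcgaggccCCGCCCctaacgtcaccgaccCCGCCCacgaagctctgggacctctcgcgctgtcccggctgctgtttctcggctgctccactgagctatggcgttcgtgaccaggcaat
Hadha: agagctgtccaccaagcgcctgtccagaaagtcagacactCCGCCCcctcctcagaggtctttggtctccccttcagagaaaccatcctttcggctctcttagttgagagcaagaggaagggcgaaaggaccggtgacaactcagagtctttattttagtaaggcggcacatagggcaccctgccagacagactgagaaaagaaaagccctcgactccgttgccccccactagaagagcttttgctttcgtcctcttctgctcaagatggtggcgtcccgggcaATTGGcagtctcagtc
Hadhb: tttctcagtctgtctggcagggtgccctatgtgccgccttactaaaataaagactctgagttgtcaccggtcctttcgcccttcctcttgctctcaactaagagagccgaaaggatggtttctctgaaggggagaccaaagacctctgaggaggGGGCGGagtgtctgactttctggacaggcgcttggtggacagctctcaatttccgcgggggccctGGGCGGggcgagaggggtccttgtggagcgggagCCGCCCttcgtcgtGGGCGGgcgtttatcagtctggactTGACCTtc
Hadha and Hadhb stand head to head, with start sites 301 bases apart, and 200 bases belong to both windows. The Hadh window holds 3 GGGCGG matches, at -119, -60 and -39 from the start site. The stretch common to Hadha and Hadhb holds 1, at -210 from the Hadha start and -96 from the Hadhb start.

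Across the 30 member windows, 22 held GGGCGG, the core of the SP1 box, beside 33.1% of all 33469 windows. The median GC content was 59.8% in member windows and 51.7% in all windows. The half-site AGGTCA of nuclear receptors was in 6 (Acadvl, Echs1, Eci1, Eci2, Hadhb and Hsd17b4), beside 16.2%, and the CCAAT box in 11, beside 37.5%. No member window held the PPAR element, a pair of AGGTCA copies in the same direction with 1 base between, beside 0.0538% of all windows. The element TCAAGGTCA of oestrogen-related receptors, which also contains the half-site, was in no member window and in 0.433% of all. The element of the mineralocorticoid and glucocorticoid receptors, AGAACA and TGTTCT with 3 bases between, was in no member window and in 0.0149% of all. The palindromic NRF1 element was in 1, that of Ppara, beside 0.852%. No match says only that these letters were not in the window.

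The first dehydrogenation and its electron carriers were mixed. Acadl, the long-chain acyl-CoA dehydrogenase gene, had 127.8, 126.4 and 123.5 CPM with spironolactone and 99.47, 108.6 and 113.6 CPM with vehicle. Its groups did not overlap, and the log2 fold change was 0.23 (SE 0.061, adjusted p = 0.0978). Etfa encodes the alpha subunit of the electron transfer flavoprotein, which takes electrons from the acyl-CoA dehydrogenases. It had 151.6, 148.2 and 143.5 CPM with spironolactone and 114.2, 120.6 and 135 CPM with vehicle, and again no spironolactone value fell within the vehicle range. The log2 fold change of Etfa was 0.26 (SE 0.071, adjusted p = 0.104), and that of the beta subunit gene Etfb was 0.19 (SE 0.053, adjusted p = 0.105).

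The other dehydrogenase genes did not share this difference. Acadvl, which acts on very long chains, had a log2 difference of -0.0061 (SE 0.052), and Acadm, which acts on medium chains, had -0.08 (SE 0.068). Acads, the short-chain enzyme gene, had 0.09 (SE 0.083), and Etfdh, whose product passes electrons on to ubiquinone, had 0.07 (SE 0.054). Acadsb, which acts on short branched chains, had -0.19 (SE 0.088, adjusted p = 0.249), or -0.12 without spironolactone replicate 3. Its groups overlapped on CPM and were separate on the lower side on TPM. Across the 8 genes of this step, 5 log2 fold changes were positive and 3 negative.

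**Figure D2:**
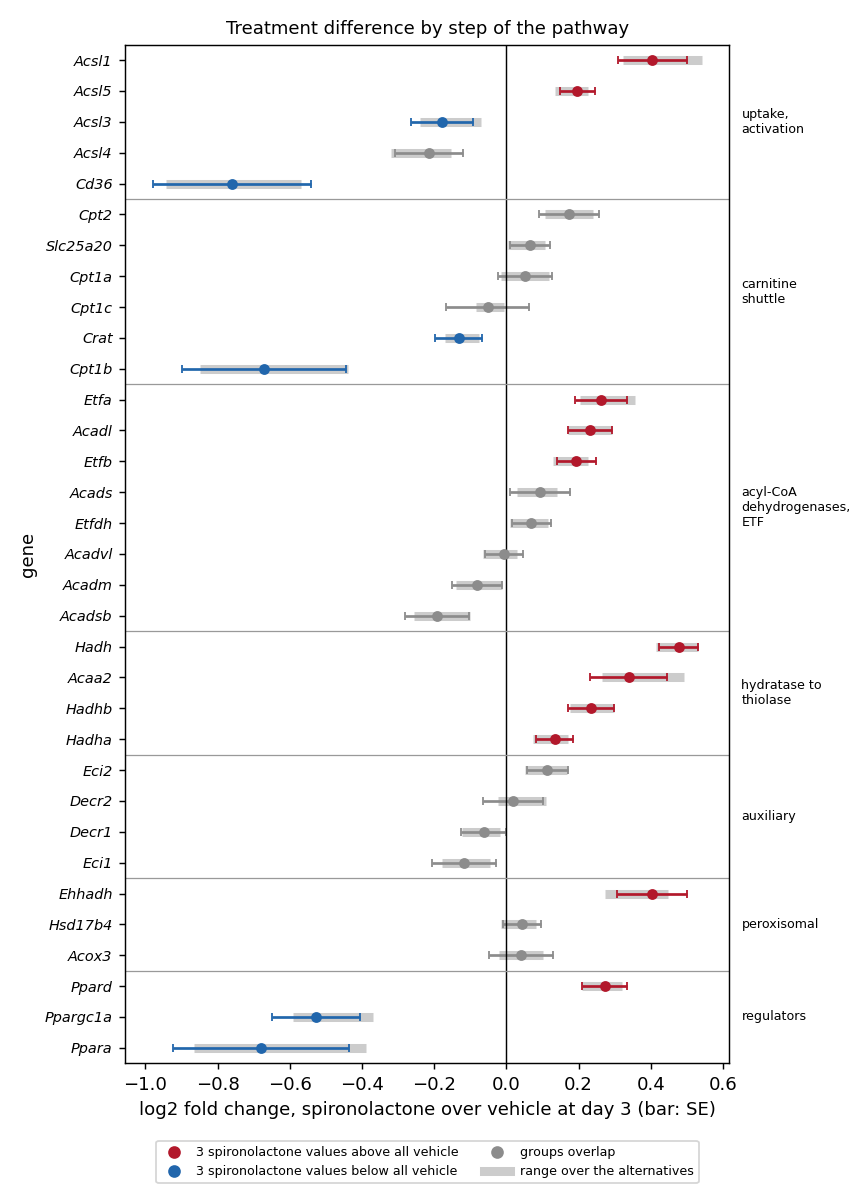
Log2 fold change of each tested member, spironolactone over vehicle at day 3 (x axis), by step of the pathway (y axis). Points are edgeR estimates with their SE, red or blue where the groups do not overlap, and grey bands give the range over the alternative analyses. Hadh lies at 0.48, and Cd36, Cpt1b, Ppara and Ppargc1a lie beyond -0.5.

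Entry of long chains into mitochondria, the step usually held to set the pace of oxidation, showed no common direction. Cpt1a encodes the widely expressed carnitine palmitoyltransferase of the outer membrane. It had 160.7, 147.5 and 133.4 CPM with spironolactone and 142.7, 146.2 and 137.1 with vehicle, so the vehicle values lay inside the spironolactone range. Its log2 fold change was 0.05 (SE 0.075, adjusted p = 0.702), and it was -0.015 without spironolactone replicate 1. Cpt2, the inner membrane partner, had 32.74, 38.06 and 37.77 CPM with spironolactone and 29.91, 33.86 and 32.5 CPM with vehicle. Spironolactone library 1 lay within the vehicle range, and the log2 fold change was 0.17 (SE 0.083, adjusted p = 0.266).

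Cpt1b, the isoform of muscle, was low and had 3.888, 3.424 and 3.151 CPM with spironolactone and 4.065, 7.166 and 5.437 CPM with vehicle. The lowest vehicle library was close above the highest spironolactone library, and the vehicle libraries varied most of all members (CV 28%). The log2 fold change was -0.67 (SE 0.23, adjusted p = 0.154), and without vehicle replicate 2, the highest library, it was -0.44. The vehicle library with the lowest Cpt1b, vehicle library 1, also had the lowest sum of skeletal muscle markers of the vehicle group (687.3 CPM against 1295 and 1566). With spironolactone it was the reverse: library 3 had the lowest Cpt1b and the highest muscle sum (403 CPM against 253.2 and 232.1). The part of muscle in the Cpt1b difference was not tested. Cpt1c, the isoform known from neurons, had a log2 difference of -0.05 (SE 0.11), and Slc25a20, which swaps acylcarnitine for carnitine across the inner membrane, had 0.06 (SE 0.055). Crat, the carnitine acetyltransferase gene, had 43.16, 42.69 and 42.12 CPM with spironolactone and 47.17, 49.67 and 43.41 CPM with vehicle. These groups did not overlap, though the gap to vehicle library 3 was narrow, and the log2 fold change was -0.13 (SE 0.064, adjusted p = 0.272), or -0.0752 without vehicle replicate 2.

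Uptake and activation split between the acyl-CoA synthetases. Acsl1, the synthetase gene with the highest level here, had 413.6, 399 and 366.4 CPM with spironolactone and 260.7, 299.4 and 330.7 CPM with vehicle. The groups did not overlap, and the log2 fold change was 0.40 (SE 0.095, adjusted p = 0.0821). Acsl5, another long-chain synthetase gene, had 155.5, 149.3 and 161.8 CPM with spironolactone, while the vehicle libraries were nearly alike at 135.6, 135.6 and 136 CPM. Its log2 fold change was 0.20 (SE 0.049, adjusted p = 0.0911). Acsl3, a synthetase known from lipid droplets, went the other way, with 144.3, 140.4 and 115.9 CPM against 151, 148.9 and 153.3. Spironolactone library 3 was the lowest, and the log2 fold change was -0.18 (SE 0.086, adjusted p = 0.268), or -0.0858 without that library. Acsl4, which prefers arachidonic acid, had a log2 difference of -0.21 (SE 0.095, adjusted p = 0.236), with overlapping groups.

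Cd36, the fatty acid translocase gene expressed by fat cells, muscle, capillary endothelium and macrophages, had 2.705, 2.175 and 1.601 CPM with spironolactone and 3.319, 3.897 and 3.751 CPM with vehicle. Each spironolactone value was below each vehicle value, and the log2 fold change of -0.76 (SE 0.22, adjusted p = 0.114) was the lowest of the tested members. Markers of all these cell types had negative medians in the same libraries: -0.43 for 12 blood endothelial, -0.27 for 9 monocyte and macrophage, -0.32 for 4 tested adipocyte and -2.08 for 22 muscle markers. Their sums were 446.6 to 582.7 against 583.3 to 788.7 CPM for blood endothelium, 1243 to 1662 against 1514 to 1919 for monocytes and macrophages, and 131.4 to 144.5 against 157.4 to 161 for adipocytes. Among the adipocyte markers Adipoq, Plin1, Cidec, Lep, Retn and Pck1 were too low to test, and Lep was at 0 in each library. Most of the adipocyte sum was Lpl, at 99.63, 113.4 and 100 CPM with spironolactone and 118.5, 115 and 122.1 with vehicle. That sum is therefore not read as a level of fat cells. Separate lower groups were found in 6 endothelial, 2 monocyte and macrophage, 1 adipocyte and 22 muscle markers, beside 16.1% of all genes. Lists of other cells were also negative, with medians of -0.67 for 6 neutrophil, -0.97 for 14 retina and lens and -0.06 for 8 keratocyte and fibroblast markers. The median of the 14 epithelial markers was 0.55. The part of the cell types in the Cd36 difference was not tested.

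The auxiliary enzymes that prepare unsaturated chains showed no separation on CPM. Eci1 and Eci2 encode enoyl-CoA isomerases and had log2 differences of -0.12 (SE 0.088) and 0.11 (SE 0.057). Decr1 and Decr2, the mitochondrial and peroxisomal dienoyl-CoA reductase genes, had -0.06 (SE 0.061) and 0.02 (SE 0.083). All 4 had overlapping groups on CPM. On TPM Decr1 was separate on the lower side, at 55.84, 53.17 and 50.35 with spironolactone and 56.57, 59.08 and 58.07 with vehicle.

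Of the peroxisomal genes, Ehhadh had separate groups. Its product joins a hydratase to a hydroxyacyl-CoA dehydrogenase of the kind that Hadh provides in mitochondria. The gene was low, at 8.453, 8.418 and 8.353 CPM with spironolactone and 6.679, 6.27 and 6.112 CPM with vehicle. The spironolactone libraries were almost equal and lay above the vehicle range, for a log2 difference of 0.40 (SE 0.097, adjusted p = 0.084). Hsd17b4, the D-specific bifunctional enzyme gene and by level the main peroxisomal member, had 0.04 (SE 0.052), and the oxidase gene Acox3 had 0.04 (SE 0.089).

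The regulators had values in both directions. Ppara, the receptor best known for driving this pathway in liver, had 4.621, 4.068 and 2.351 CPM with spironolactone and 5.849, 5.509 and 6.322 CPM with vehicle. Each spironolactone library was below the vehicle range, most of all library 3, which also had the low retina and lens sum. The log2 fold change was -0.68 (SE 0.24, adjusted p = 0.17) and -0.44 without spironolactone replicate 3. The part of retina and lens in the Ppara difference was not tested. Ppargc1a, which encodes PGC-1alpha, had 8.509, 8.056 and 6.853 CPM against 11.16, 10.26 and 12.31. The groups did not overlap, and the log2 fold change was -0.53 (SE 0.12, adjusted p = 0.0811). Spironolactone library 3 was again the lowest. The log2 fold change of Ppargc1a was -0.44 without that library and -0.37 without both replicates 3. Ppard, the widely expressed receptor gene, had 66.83, 73.35 and 74.78 CPM with spironolactone and 58.91, 57.15 and 62 CPM with vehicle. All 3 spironolactone libraries were above the vehicle range, for a log2 difference of 0.27 (SE 0.063, adjusted p = 0.0808).

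**Figure D3:**
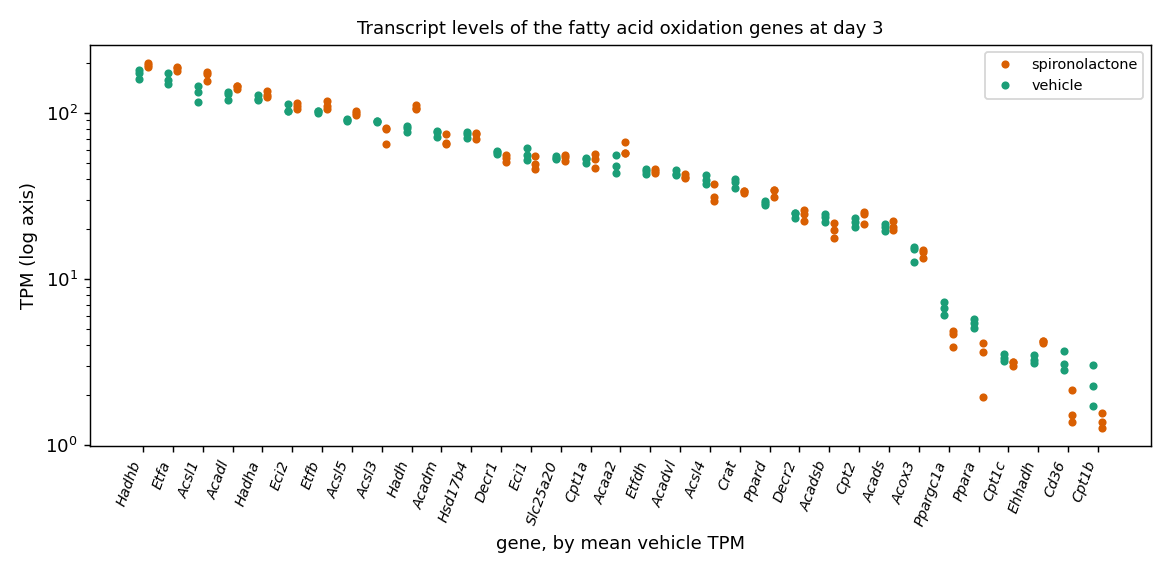
Deposited TPM (y axis, log scale) of each tested member in the 3 spironolactone and 3 vehicle libraries at day 3, in order of the vehicle mean. Levels run from 172 TPM for Hadhb to 2.34 TPM for Cpt1b.

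Per length, in the authors' TPM, the mean vehicle levels of the tested members spanned from 172 for Hadhb to 2.34 for Cpt1b. Hadhb was followed by Etfa at 160, Acsl1 at 132, Acadl at 127 and Hadha at 123 TPM, where the vehicle ranges of Hadhb and Etfa overlapped, as did those of Acsl1, Acadl and Hadha. Hadh, at 80.4 ± 3.39 TPM (SD, n = 3), stood in that order between Acsl3 at 88.6 and Acadm at 75.5. The lowest were Ppargc1a at 6.68, Ppara at 5.4, Cpt1c at 3.36, Ehhadh at 3.31, Cd36 at 3.2 and Cpt1b at 2.34 TPM. Cpt1a, at 52.1 TPM, was the main gene of the outer membrane transferase. Of the 11 members with separate higher groups, 10 had at least 10 TPM in vehicle and Ehhadh did not. Of the 6 with separate lower groups, Acsl3 and Crat were above 10 TPM and the other 4 below it. The members together took 0.197% to 0.21% of TPM with spironolactone and 0.186% to 0.196% with vehicle.

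Other genes of the same metabolism were read from lists around the pathway, and none of their genes passed edgeR's test at an adjusted p of 0.05. Beside the counts of this and the following lists stand the shares of all genes. Groups were separate in 16% higher and 16.1% lower. An unadjusted p under 0.05 was found in 12.2% higher and 10.4% lower. DESeq2 called 5.74% higher and 3.41% lower. Among 29 further genes of mitochondrial and peroxisomal fatty acid metabolism, not all of them oxidation enzymes, 17 were positive. Their median log2 fold change was 0.03. Separate groups were found in 2 higher and 3 lower, an unadjusted p under 0.05 in 2 higher and 1 lower, and a DESeq2 call in 1 lower. Pecr, a peroxisomal enoyl-CoA reductase gene, had 15.8 ± 0.303 CPM with spironolactone and 12.8 ± 0.633 with vehicle (SD, n = 3 each). Hsd17b10, a mitochondrial hydroxyacyl-CoA dehydrogenase gene for branched chains, had a log2 difference of 0.17 (SE 0.058). Phyh, the phytanic acid hydroxylase gene of peroxisomes, had 57.9 ± 1.38 against 68.5 ± 3.11 CPM (log2 fold change -0.24, SE 0.054, adjusted p = 0.0768, DESeq2 adjusted p = 0.0302). Abcd2, a peroxisomal transporter gene, had -0.71 (SE 0.31). Acsl6 had -0.88 (SE 0.57), and it stood at 10.75 CPM in spironolactone library 3 and from 45.36 to 71.81 in the others. The retina and lens markers also had their lowest sum in that library, with a fall in the retinal gene Nrl and none in the lens gene Cryab. The part of these tissues in the Acsl6 difference was not tested.

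Carnitine supply and fatty acid uptake were positive in 10 of 14 genes, with a median of 0.15. Separate groups were found in 4 higher and 1 lower, an unadjusted p under 0.05 in 3 and 1, and DESeq2 calls in 2 and 1. Slc27a4, a fatty acid transport protein gene, had 62.1 ± 2.99 CPM with spironolactone and 52.2 ± 0.982 with vehicle, a log2 fold change of 0.25 (adjusted p = 0.0768). Aldh9a1, of carnitine synthesis, had 0.23 (SE 0.065), and Slc27a1 had 0.14 (SE 0.066). Fabp4, the fatty acid binding protein gene of fat cells and capillaries, had 2.085, 1.168 and 2.251 CPM with spironolactone and 4.231, 4.434 and 4.088 CPM with vehicle. The difference was -1.22 on the log2 scale (SE 0.25, adjusted p = 0.0747), below Cd36 and on the side of the endothelial and adipocyte markers given above. The part of those cells in the Fabp4 difference was not tested.

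Of 7 genes of ketone body metabolism 5 were positive, with a median of 0.06, 2 higher and 1 lower at an unadjusted p under 0.05, and 1 called higher by DESeq2. Bdh1, the mitochondrial hydroxybutyrate dehydrogenase gene, was the one with separate groups, at 75.3 ± 7.88 against 54.4 ± 8.93 CPM and a log2 difference of 0.47 (SE 0.13, adjusted p = 0.114). PPAR targets and co-regulators were positive in 10 of 22, with a median of -0.0092, 3 in each direction at an unadjusted p under 0.05, and DESeq2 calls for 3 higher and 1 lower. Rxra, the partner receptor of the PPARs, had 106 ± 16.2 against 74.7 ± 4.55 CPM (log2 fold change 0.50, SE 0.12, adjusted p = 0.0811). Prkaa2, a catalytic subunit gene of AMP-activated kinase, had 0.29 (SE 0.066), and Txnip had 0.39 (SE 0.11). Lpin1, a coactivator and phosphatase gene, had -0.40 (SE 0.13), and Ucp3, an uncoupling protein gene of muscle, had -1.47 (SE 0.44) at 0.373 against 1.06 CPM.

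Genes of the opposite pathway, fatty acid synthesis, were positive in 11 of 16, with a median of 0.11. Separate groups and an unadjusted p under 0.05 were found in 5 each, all higher, beside 16% and 12.2% of all genes. DESeq2 called 3 higher, beside 5.74%. Slc25a1, the citrate carrier gene, had 60.9 ± 2.48 against 51.8 ± 1.75 CPM (log2 fold change 0.23, SE 0.056, adjusted p = 0.0839). Elovl1, an elongase gene, had 0.25 (SE 0.066), and Me1, the malic enzyme gene that supplies NADPH, had 0.42 (SE 0.11). Nuclear genes of general mitochondrial content were positive in 24 of 28, with a median of 0.05, separate groups in 6 higher and 1 lower, an unadjusted p under 0.05 in 3 and 1, and 1 higher by DESeq2. Dlst, of the citric acid cycle, had 0.46 (SE 0.12, adjusted p = 0.0919), Lonp1 0.20, Vdac1 0.16 and Vdac3 -0.10. That median was close to the 0.05 of the fatty acid oxidation members.

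**Figure D4:**
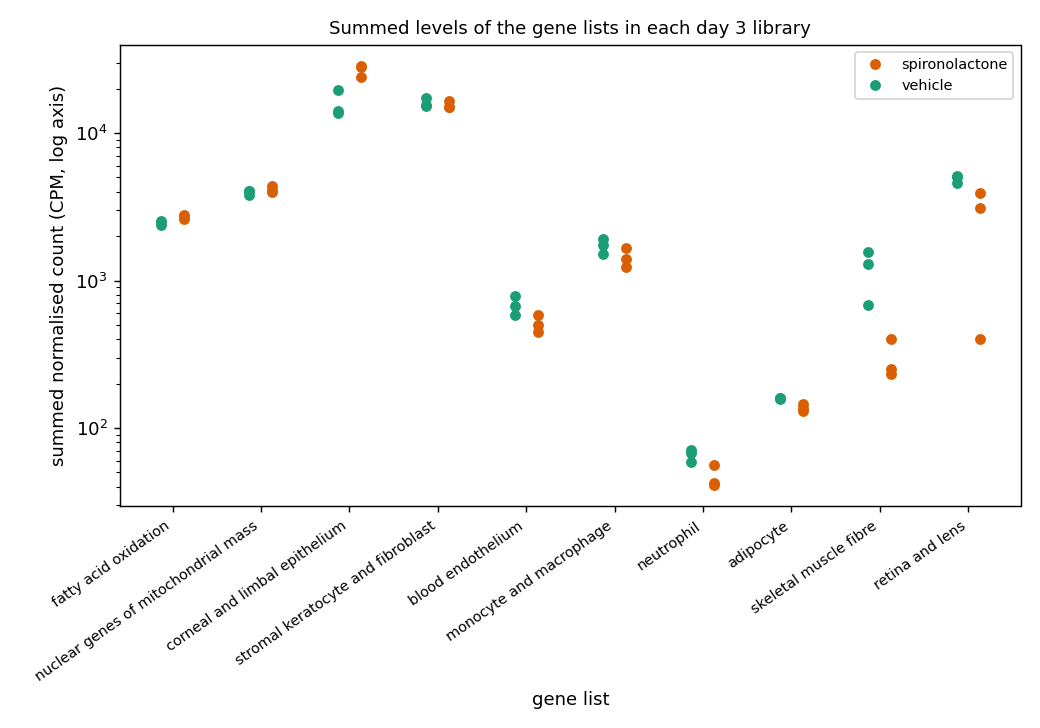
Summed CPM (y axis, log scale) of the fatty acid oxidation members, of nuclear mitochondrial genes and of marker lists in each day 3 library. The members sum to 2627 to 2764 CPM with spironolactone and 2369 to 2538 with vehicle, beside the wider gaps of the epithelial and muscle markers.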

How the data were processed

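The data were 13 RNA-seq libraries, of which the 6 of day 3 were used. FastQC, fastp, RSEM 1.2.28, STAR 2.5.3a, Picard, DRAGEN, edgeR 3.28.0 and DESeq2 1.26.0 are named per the submitters' processing notes, with the builds rn6 and Rnor_6.0 and no role for each. Per the file headers, the authors deposited expected counts, which need not be whole, effective lengths and TPM per gene. Whether counting used strand is not stated, so overlapping and antisense genes may share reads. The row that pools transcripts without a gene name, 0.12% to 0.181% of counts, was left out.

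Expected counts were rounded, filtered by edgeR's expression filter (minimum count 10), scaled by TMM and tested in R 4.3.3 with edgeR 4.0.16 (robust quasi-likelihood, Benjamini-Hochberg over all genes). SE is the log2 fold change over the square root of F. Alternatives used DESeq2 1.42.0, limma 3.58.1 (voom, and log2(TPM + 1)), other scalings and filters, effective-length offsets, a replicate block and libraries left out. Of the genes on the lists, 1 was matched through an older symbol. The chi-square per gene between libraries of a group was 7.91 to 23.7, so none was a repeat of another. The members, lists and tests were chosen with earlier results of these data known. Values in every library are given for Hadh, Hadha, Hadhb, Cpt1a, Cpt1b, Cpt2, Ppara, Ppargc1a and up to 6 other members per direction with separate groups and the smallest p. From each other list up to 3 genes per direction with separate groups are named. Day 7 tests were not run.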

Additional observations from a re-analysis of the deposited data

How the results depend on the processing

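The count of genes called at day 3 was 0 in edgeR, 1330 in DESeq2, 148 with no filter on low counts and 1040 without both replicates 3. With libraries left out one at a time it ran from 0 to 781: leaving out vehicle replicate 3 gave 781, vehicle replicate 1 gave 40 and spironolactone replicate 3 gave 2. Members called were 0 in edgeR, 8 in DESeq2, 1 (Hadh) with no filter, 4 without both replicates 3, and 0 to 4 with one library left out, the 4 being without vehicle replicate 3. The cause was not tested. The median log2 fold change of the members, 0.05, was -0.0098 on log2(TPM + 1), where the median of all genes was -0.06 and 16 of 33 members were positive. On that scale Cpt1a (-0.0098), Decr2 (-0.01), Acox3 (-0.0144) and Hsd17b4 (-0.0151) changed sign. Acadvl was 0.004 without both replicates 3. With one library left out, Cpt1a ran from -0.0154 to 0.117, Decr2 from -0.0239 to 0.0849, Acadvl from -0.0316 to 0.0282 and Acox3 from -0.0216 to 0.101. The other 28 tested members kept their sign in each alternative run. With the replicate number as a block, edgeR called 0 genes and 0 members, 20 members were positive and their median was 0.048. The same-numbered libraries deviated together with correlations of 0.114, -0.093 and 0.064 across genes. Spironolactone libraries 1 and 3 correlated best with the vehicle library of their number, and library 2 with vehicle library 3, at 0.067. The labels state no pairing, and the numbers are not treated as pairs. Alternatives for day 7 were not run.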
